A study of Mus musculus with 5 samples.

Results

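Excitation-contraction coupling is the step by which an electrical impulse on the muscle membrane becomes a release of calcium and a twitch. The 10 genes described here encode parts of the triad, the junction where this step takes place, and of the calcium store beside it: Cacna1s, Cacnb1, Cacng1, Stac3, Ryr1, Ryr3, Jph1, Jph2, Casq2 and Atp2a1. They were taken by name from the 54232 genes of the deposited table, by a rule that uses no measured value. Earlier results of these data were known when they were chosen. All 10 were detected in every sample, with 830 to 321708 recovered reads each, and all 10 passed the filter for testing.

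RNA was sequenced from primary myoblasts of young adult mice on a mixed C57BL6 and 129SV background, after 72 h in low-serum differentiation medium. The cells came from leg muscle and had been enriched on magnetic beads as satellite cells carrying integrin alpha-7. The control group was WT (n = 3). The other group was homozygous for the Elmo2 EID allele (Elmo2 EID/EID, n = 2), a knock-in point mutation present in every cell of the animal that favours the open form of the ELMO2 scaffold protein and that was made to ask how this form bears on myoblast fusion. The labels do not say which animal each sample came from, so the p-values measure the spread between these samples.

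In skeletal muscle, the impulse runs along the transverse tubules, where the L-type calcium channel CaV1.1 senses the change in voltage. CaV1.1 touches the ryanodine receptor of the sarcoplasmic reticulum and opens it mechanically, without the need for calcium entry from outside. Junctophilins hold the membranes close together, calsequestrins bind calcium inside the store, and SERCA pumps refill it after each release. Myoblasts in a dish start to express this machinery as they stop dividing and fuse into myotubes.

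The labelled cell type was checked against 7 muscle genes, namely Myod1, Myog, Mymk, Ckm, Myh3, Acta1 and Ttn, each of which had at least 17072 normalized counts in every sample. Normalized counts are reads divided by a size factor for each sample. Recovered totals ran from 35021856 reads (WT replicate 3) to 49381544 reads, and 3 reads, taken as the floor of detection, equal 2.65 to 3.73 normalized counts. Elmo2 mRNA, at 1327 to 1660 normalized counts, does not check the genotype labels, since the mutation changes a codon. Differences are log2 fold changes of Elmo2 EID/EID relative to WT, computed on log2(normalized count + 1), with standard errors (SE) and adjusted p-values from limma over 18156 tested genes.

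Sequence decides whether the reads of 1 family member can be told from those of another, so Atp2a1 and Ryr1 are each shown beside their most abundant relative. Each line below holds the longest identical run shared by the coding sequences of a pair of relatives, in capitals, with up to 40 flanking bases in lower case, 5′ to 3′, from the GENCODE M21 transcripts. Atp2a1 and Atp2a2 share 44 bases, at coding positions 2254 to 2297 of Atp2a1:
Atp2a1: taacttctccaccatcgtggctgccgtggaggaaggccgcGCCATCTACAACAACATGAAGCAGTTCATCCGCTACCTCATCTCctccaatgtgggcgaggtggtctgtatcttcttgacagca
Atp2a2: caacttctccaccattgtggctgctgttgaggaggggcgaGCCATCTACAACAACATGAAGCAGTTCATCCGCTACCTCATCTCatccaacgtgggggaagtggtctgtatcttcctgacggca
Ryr1 and Ryr3 share 30 bases, at coding positions 14925 to 14954 of Ryr1:
Ryr1: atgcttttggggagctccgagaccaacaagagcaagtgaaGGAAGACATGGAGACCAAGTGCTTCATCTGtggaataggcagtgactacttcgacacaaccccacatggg
Ryr3: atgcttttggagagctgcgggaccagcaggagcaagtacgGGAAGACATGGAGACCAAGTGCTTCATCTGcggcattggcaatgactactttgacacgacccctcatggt
Both of these runs are shorter than a 50-base read. The longest shared run was 35 bases for Jph1 with Jph2, 28 for Cacna1s with Cacna1c, 25 for Casq2 with Casq1, 23 for Cacnb1 with Cacnb3 and 12 for Stac3 with Stac2.

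No 50-base stretch of the reference transcript was shared with another gene for 9 of the 10 genes. Atp2a1 shared 4 of its 3428 stretches, or 0.117%, all of them with Atp2a3. Ryr1 overlaps Mir1963 on the same strand, Cacna1s overlaps Gm37014, and Casq2 overlaps 4632404M16Rik and Gm43244, so reads in those overlaps are uncertain. The counting used strand, and the partners of Ryr3, Cacnb1, Jph1 and Atp2a1 lie on the opposite strand.

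Of the 10 genes, 6 had an entry among 32851 promoters of 300 bases from RefSeq (GRCm38.p6), which run from 250 bases before the start of transcription to 50 after it. The E-box CANNTG, the motif bound by MyoD, myogenin and their relatives, is its own reverse complement and so reads alike on both strands. It was present in a listed promoter of 5 of the 6 genes, and in 6 of their 8 promoters, beside 72.3% of all promoters. CAGCTG, the form of it that these factors favour and a subset of the first motif, was present for 3 of the 6 genes, and in 4 of the 8 promoters, beside 16.3% of all promoters. The 2 listed promoters of Jph2 overlap and hold the same CAGCTG, which is thus counted for each. A promoter of each of those 3 genes is shown, each on the strand of its gene, with the E-boxes in capitals. They lie at chr7:126463024-126463323 on the minus strand for Atp2a1, at chr1:136052561-136052860 on the plus strand for Cacna1s and at chr2:163397944-163398243 on the minus strand for Jph2.
Atp2a1: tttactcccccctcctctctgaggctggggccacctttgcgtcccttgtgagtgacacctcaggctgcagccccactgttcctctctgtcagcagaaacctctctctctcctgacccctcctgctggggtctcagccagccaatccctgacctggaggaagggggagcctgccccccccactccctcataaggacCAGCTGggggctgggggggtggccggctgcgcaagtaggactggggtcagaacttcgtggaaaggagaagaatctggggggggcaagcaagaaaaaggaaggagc
Cacna1s: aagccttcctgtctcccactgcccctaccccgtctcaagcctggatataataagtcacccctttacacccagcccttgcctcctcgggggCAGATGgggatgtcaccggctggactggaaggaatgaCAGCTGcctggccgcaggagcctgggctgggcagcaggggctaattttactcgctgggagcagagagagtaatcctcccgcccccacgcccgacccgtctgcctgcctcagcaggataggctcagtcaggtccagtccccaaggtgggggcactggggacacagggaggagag
Jph2: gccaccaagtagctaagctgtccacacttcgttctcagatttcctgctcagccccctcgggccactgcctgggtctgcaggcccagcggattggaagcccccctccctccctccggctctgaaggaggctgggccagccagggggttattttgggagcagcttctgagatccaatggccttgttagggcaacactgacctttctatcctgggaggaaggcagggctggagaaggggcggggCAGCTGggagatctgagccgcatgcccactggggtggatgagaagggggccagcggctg
A match describes the letters in the window and no binding was measured in these cells.

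The coupling genes were abundant in these cultures. They took 1.322% to 1.503% of all normalized counts of a sample. Divided by the length of the merged exons, Atp2a1 stood highest, with a mean of 83464 normalized counts per kb over the 5 samples, and ranked 18 among 18142 tested genes with a length. Casq2 followed with 35102 per kb, then Cacng1 with 12557, Cacna1s with 7494, Jph2 with 5822, Ryr1 with 5180, Cacnb1 with 2950, Stac3 with 2090 and Jph1 with 2042. Ryr3 stood last with 85.9 per kb, 23.8 times below Jph1. Most neighbours in this order were apart in every sample. Jph2 and Ryr1 overlapped over the samples, as did Stac3 and Jph1, and neither pair can be ordered on this length. With the longest transcript as the length, Ryr1 stood at 7366 per kb and overlapped both Cacna1s (7853) and Jph2 (5883) over the samples, while Stac3 stood at 2970 and Jph1 at 2122, apart in every sample.

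**Figure D1:**
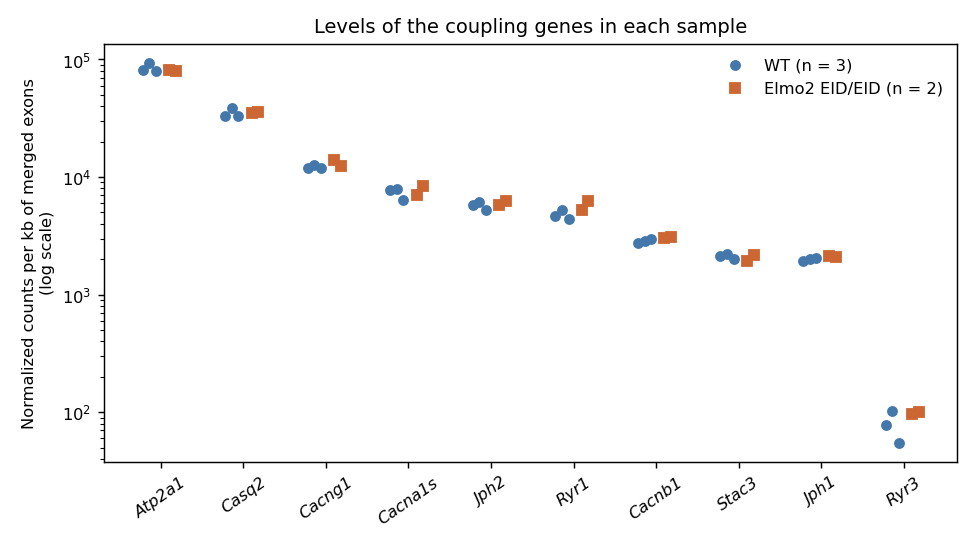
Level of each of the 10 coupling genes in every sample, as normalized counts per kb of merged exons on a log axis, with blue circles for the 3 WT samples and orange squares for the 2 Elmo2 EID/EID samples. The levels fall from 83464 per kb for Atp2a1 to 85.9 per kb for Ryr3 (means of 5 samples), and the groups lie close together for each gene.

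Between the genotypes, none of the 10 genes passed the test, with limma, with edgeR's quasi-likelihood test or with the DESeq2 Wald test. Over all tested genes, limma called 2.23% (1.09% higher and 1.14% lower), edgeR 2.25% and DESeq2 5.34%. At an unadjusted p under 0.05, limma and edgeR listed 0 of the 10 and DESeq2 listed 1, Ryr1, beside 15.2%, 15.5% and 13% of all genes. The 10 log2 fold changes had a median of 0.08 and 8 were positive. Over all tested genes the median was 0.01 and 9458 of 18156 were positive, and over the 6194 genes whose mean reached 1000 normalized counts the median was 0.02 and 3506 were positive. For 3 of the 10 genes, Ryr1, Cacnb1 and Jph1, both Elmo2 EID/EID samples lay above all WT samples, and for none did they lie below. The share of all tested genes apart in this way was 16.7% upwards and 15.9% downwards. In bulk RNA, fewer cells with the machinery and less RNA per cell cannot be told apart.

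Cacna1s (chr1:136052750-136119822, plus strand) encodes the pore and voltage sensor of CaV1.1. It had 50632, 51421 and 41566 normalized counts in WT and 46424 and 55392 in Elmo2 EID/EID. WT replicate 3, the shallowest library, was the lowest and Elmo2 EID/EID replicate 2 the highest, and the groups overlapped. The log2 fold change was 0.09 (SE 0.12, adjusted p = 0.797), with a 95% confidence interval of 0.868 to 1.30 as a fold. Its sign changed when WT replicate 3 or Elmo2 EID/EID replicate 2 was left out.

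Cacnb1 (chr11:98001508-98023034, minus strand), the beta subunit that carries CaV1.1 to the membrane, had 12411, 12928 and 13550 normalized counts in WT and 13853 and 14069 in Elmo2 EID/EID. The groups did not overlap, but the gap between them, from 13550 to 13853, was smaller than the range within WT. This gave a log2 fold change of 0.11 (SE 0.06, adjusted p = 0.488, 95% interval 0.970 to 1.20 as a fold).

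Cacng1 (chr11:107703218-107716522, minus strand), the gamma subunit of the same channel, had 14835, 15743 and 14793 normalized counts in WT and 17510 and 15540 in Elmo2 EID/EID. Elmo2 EID/EID replicate 1 was the highest sample, and replicate 2 lay inside the WT range. As a log2 fold change this was 0.13 (SE 0.07, adjusted p = 0.491, 95% interval 0.965 to 1.23). It was 0.040 without Elmo2 EID/EID replicate 1 and 0.212 without replicate 2.

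Stac3 (chr10:127501686-127508823, plus strand) encodes the adaptor that CaV1.1 needs to reach the triad and to couple to the release channel. It had 5366, 5605 and 5134 normalized counts in WT and 4906 and 5569 in Elmo2 EID/EID. The lowest sample was Elmo2 EID/EID replicate 1 and the highest WT replicate 2, and the groups overlapped. With a log2 fold change of -0.04 it did not pass the test (SE 0.08, adjusted p = 0.869, 95% interval 0.858 to 1.11). The value was 0.054 without Elmo2 EID/EID replicate 1 and -0.129 without replicate 2.

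Ryr1 (chr7:29003344-29125179, minus strand), the calcium release channel of skeletal muscle, had 102221, 114804 and 96704 normalized counts in WT and 114805 and 137064 in Elmo2 EID/EID. Both Elmo2 EID/EID samples lay above WT, but replicate 1 did so by only 0.87 normalized counts. The log2 fold change was 0.27 (SE 0.12, adjusted p = 0.345), and the 95% interval, 0.994 to 1.45 as a fold, included no change. DESeq2 gave an adjusted p of 0.224, the lowest for Ryr1 over 17 settings, and the log2 fold change ranged from 0.14 to 0.39 over them. Ryr1 has 21838 bp of merged exons, and the samples differed slightly by gene length. Over 1212 genes with at least 10000 bp, among those whose mean reached 100 normalized counts, the median deviation on the log2 scale was -0.018, -0.012 and -0.016 in WT and 0.017 and 0.033 in Elmo2 EID/EID. Over 1153 genes under 2000 bp it was 0.0038, 0.030 and 0.019 in WT and 0.0076 and -0.055 in Elmo2 EID/EID, so that only replicate 2 lay outside the WT range. The part of gene length in the Ryr1 value was not tested.

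Ryr3 (chr2:112631355-113217096, minus strand), a second release channel that is known from immature muscle and the diaphragm, had 1474, 1925 and 1032 normalized counts in WT and 1830 and 1888 in Elmo2 EID/EID. It was the most variable of the 10, with a coefficient of variation of 30.2% in WT against a median of 7.79% over the 10 genes. The highest and the lowest value were both WT samples. Its log2 fold change was 0.38 (SE 0.23, adjusted p = 0.509, 95% interval 0.885 to 1.91), which became 0.59 without WT replicate 2 and 0.14 without WT replicate 3.

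Jph1 (chr1:16964560-17097889, minus strand), a junctophilin that spans the gap between the triad membranes, had 9643, 10123 and 10277 normalized counts in WT and 10616 and 10370 in Elmo2 EID/EID. The groups did not overlap, with a gap from 10277 to 10370 that was smaller than the range within WT. In log2 terms the difference was 0.07 (SE 0.06, adjusted p = 0.666, 95% interval 0.950 to 1.16), and it was 0.041 without WT replicate 1.

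Jph2 (chr2:163336242-163397993, minus strand), the junctophilin shared with the heart, had 24366, 25880 and 22452 normalized counts in WT and 24548 and 26613 in Elmo2 EID/EID. WT replicate 3 was again the lowest and Elmo2 EID/EID replicate 2 the highest. Its log2 fold change was 0.08 (SE 0.08, adjusted p = 0.723, 95% interval 0.922 to 1.21). Without Elmo2 EID/EID replicate 2 it was 0.021, without WT replicate 3 0.026, without WT replicate 2 0.128 and without Elmo2 EID/EID replicate 1 0.138. The gene lies 1.89 Mb from Elmo2 on the same chromosome.

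Casq2 (chr3:102086415-102146514, plus strand), the calsequestrin of heart, slow and immature muscle, had 89606, 105260 and 91280 normalized counts in WT and 96537 and 97506 in Elmo2 EID/EID. Both Elmo2 EID/EID samples lay inside the WT range. The log2 fold change was 0.03 (SE 0.09, adjusted p = 0.920, 95% interval 0.872 to 1.19), and its sign changed under 5 alternatives.

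Atp2a1 (chr7:126445858-126463108, minus strand) encodes SERCA1, the calcium pump of fast fibres. It had 284240, 324601 and 278583 normalized counts in WT and 285426 and 278168 in Elmo2 EID/EID. WT replicate 2 was the highest and Elmo2 EID/EID replicate 2 the lowest, just below WT replicate 3. The log2 fold change was -0.07 (SE 0.11, adjusted p = 0.828, 95% interval 0.800 to 1.14), and it was 0.0019 without WT replicate 2.

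**Figure D2:**
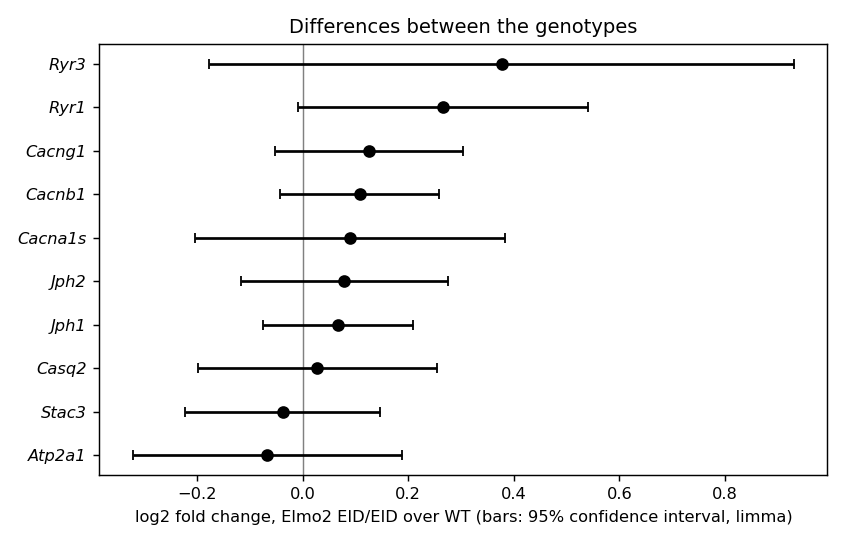
Log2 fold change of each coupling gene, Elmo2 EID/EID (n = 2) over WT (n = 3), with bars for the 95% confidence interval from limma. Each of the 10 intervals includes 0, and the interval of Ryr3 is the widest.

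The intervals set the size of difference that these samples leave possible. The 95% interval reached a fold of 1.91 for Ryr3 and 1.45 for Ryr1, and at most 1.30 for the other 8 genes. On the low side it reached 0.800, for Atp2a1. Samples differed in common across the genes: WT replicate 3 was the lowest sample for 5 of the 10 and WT replicate 1 for 3, while WT replicate 2 and Elmo2 EID/EID replicate 2 were each the highest for 4. The median deviation of the 10 genes from their own means was 0.07 in each of those last samples and -0.08 in the other WT samples. WT replicate 3 was also the shallowest library. Recovered reads were 48851316, 39630757 and 35021856 in WT replicates 1, 2 and 3, and 49192931 and 49381544 in Elmo2 EID/EID replicates 1 and 2. The part of depth in these values was not tested. The WT samples thus differed from each other by more than the median log2 fold change of 0.08 between the genotypes.

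Most coupling proteins have relatives from separate genes, and the share of each gene in its family, per kb, was compared between the genotypes. The exact permutation test over 5 samples cannot give a p under 0.1, and p-values were adjusted over 7 families. Ryr1 took 98.4% ± 0.34 (SD, n = 3) of the ryanodine receptor signal in WT and 98.3% ± 0.17 (SD, n = 2) in Elmo2 EID/EID. Ryr2, the release channel of the heart, was at or under 3 reads in every sample. Cacna1s took 99.88% to 99.95% of the L-type alpha-1 signal of a sample, ahead of Cacna1c and Cacna1d.

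The calsequestrins were expressed at like levels. Casq2 took 49.8%, 48.6% and 44.8% of their signal in WT and 48.7% and 53.2% in Elmo2 EID/EID, a difference of 3.25 percentage points (exact permutation p = 0.4, adjusted p = 0.56). Leaving out Elmo2 EID/EID replicate 2 made this difference 0.968 points, leaving out replicate 1 made it 5.52 and leaving out WT replicate 3 made it 1.78. Casq1, the calsequestrin of fast muscle, took the rest. Jph2 took 73.9% ± 1.71 of the junctophilin signal in WT and 74.1% ± 1.42 in Elmo2 EID/EID, with Jph1 at 24.9% to 28.0%. Jph3 was at or under 3 reads in every sample and Jph4 took at most 0.060%.

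Atp2a1 took 88.1%, 87.5% and 87.5% of the SERCA signal in WT and 88.2% and 89.7% in Elmo2 EID/EID. The groups did not overlap, and the difference of 1.28 percentage points had the smallest p the design allows (exact permutation p = 0.1, adjusted p = 0.525). It was 2.06 points without Elmo2 EID/EID replicate 1 and 0.493 without replicate 2. Atp2a2, the pump of slow and heart muscle, had 67285, 80834 and 69569 normalized counts in WT and 66771 and 55375 in Elmo2 EID/EID (log2 fold change -0.25, SE 0.12, adjusted p = 0.383 from limma).

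Cacnb1 took 89.6% ± 0.55 of the beta subunit signal in WT and 89.0% ± 0.25 in Elmo2 EID/EID, and Cacnb3 took nearly all of the rest. Stac3 took 82.2%, 84.4% and 88.3% of the STAC signal in WT and 81.7% and 76.3% in Elmo2 EID/EID, a difference of -5.97 points (exact permutation p = 0.2, adjusted p = 0.525). It was -3.30 points without Elmo2 EID/EID replicate 2 and -8.64 without replicate 1. The lower share in Elmo2 EID/EID replicate 2 came with the highest level of Stac2, a relative best known from neurons, at 2120 normalized counts against 828 to 1436 in WT.

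**Figure D3:**
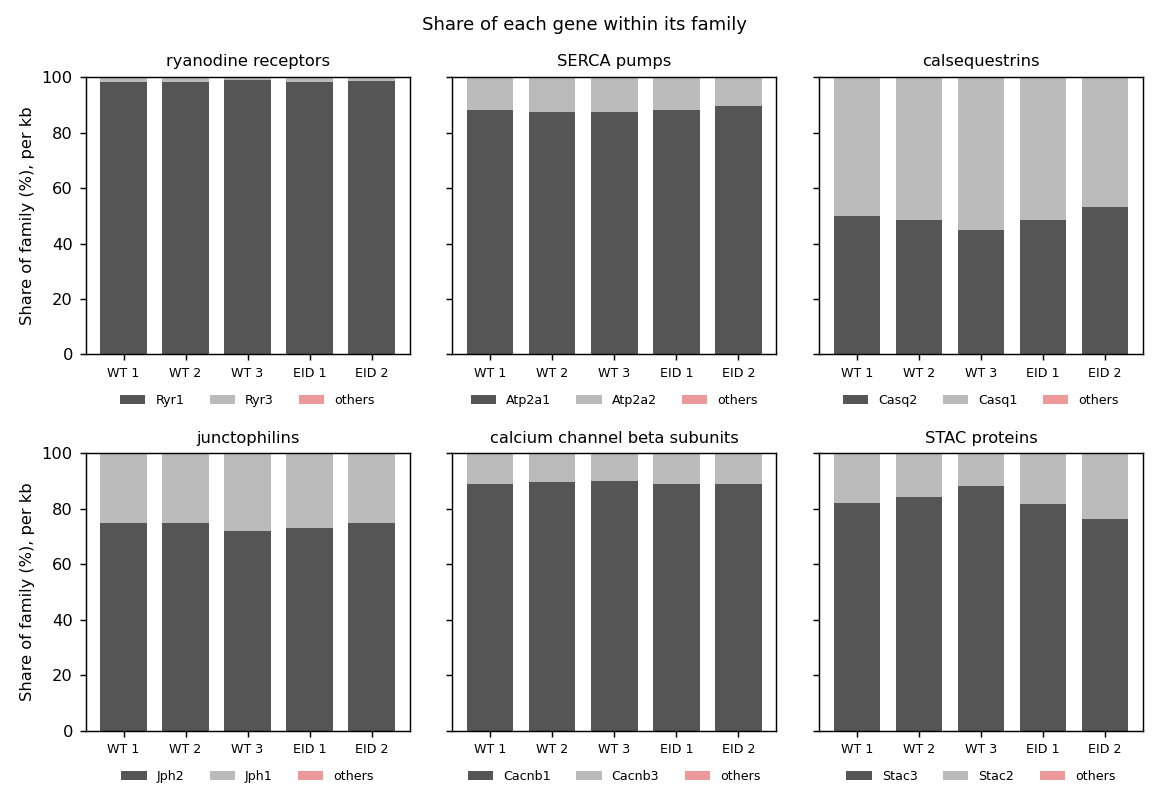
Share of the normalized counts per kb of 6 families taken by each gene, in percent, with 1 stacked bar for each of the 5 samples. Ryr1, Atp2a1, Jph2, Cacnb1 and Stac3 hold most of their family in every sample, Casq2 and Casq1 hold similar shares, and the families' further members, drawn as others, are too low to be seen.

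The machinery around the 10 genes was read from 7 lists of 63 other coupling and calcium genes, of which 59 were tested. Limma called 0 of the 59, edgeR 0 and DESeq2 4 (Cacna2d1 and Slc8a3 higher, Atp2b4 and Slc8a1 lower). Over all tested genes these tools called 2.23%, 2.25% and 5.34%. At an unadjusted p under 0.05, limma listed 10, edgeR 11 and DESeq2 11, beside 15.2%, 15.5% and 13% of all tested genes. The listed genes of each tool include Cacnb2, which reached the filter of 5 normalized counts only in the Elmo2 EID/EID samples. For 19 of the 59 the groups were apart, 11 upwards and 8 downwards, beside 32.6% of all tested genes, and the median log2 fold change was 0.02. Ryr2, Jph3, Atp2b2 and Slc8a2 were at or under 3 reads in all samples.

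Among the channel subunits, limma and edgeR called 0 of 8, and limma listed 4 at an unadjusted p under 0.05, all higher with the groups apart (Cacna2d1, Cacnb2, Cacnb3 and Cacnb4), beside 15.2% listed and 16.7% apart upwards over all tested genes. Of these, Cacnb2 reached the filter of 5 normalized counts only in the Elmo2 EID/EID samples, where it was high. Its WT values were at or under 3 reads. Cacna2d1, the alpha2-delta subunit of CaV1.1, had 29743, 30690 and 28122 normalized counts in WT and 33723 and 35876 in Elmo2 EID/EID (log2 fold change 0.24, SE 0.07, adjusted p = 0.178 from limma and 0.0428 from DESeq2). Cacnb3, a beta subunit of many tissues, had 1343, 1290 and 1308 against 1462 and 1530 (log2 fold change 0.19, SE 0.07, adjusted p = 0.253). Cacng6, another gamma subunit, had 3831 to 4806 normalized counts over the samples (adjusted p = 0.898).

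Among the partners of the release channel and the store proteins, limma, edgeR and DESeq2 called 0 of 11 tested genes, and none was listed at an unadjusted p under 0.05 by limma. Casq1 had 64527, 79496 and 80337 normalized counts in WT and 72630 and 61123 in Elmo2 EID/EID (adjusted p = 0.624), and Srl, which encodes the calcium-binding store protein sarcalumenin, had 95986 to 110305 over the samples (adjusted p = 0.945). Trdn, which anchors calsequestrin to the release channel, had 29431, 33540 and 29504 against 34095 and 35547, with the groups apart (log2 fold change 0.18, SE 0.08, adjusted p = 0.371). Among the genes that shape the triad membranes, Bin1, the amphiphysin that bends the transverse tubules, had 60362 to 67707 normalized counts (adjusted p = 0.639). Cav3, the caveolin of muscle, had 11737 to 16455 (adjusted p = 0.893).

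The list of calcium pumps, exchangers and their regulators held 3 of the 4 genes that DESeq2 called. These were 3 of its 10 tested genes, beside 5.34% of all tested genes. Atp2b4, a plasma membrane calcium pump, had 990, 1075 and 848 normalized counts in WT and 579 and 363 in Elmo2 EID/EID. The groups were apart, and the log2 fold change of -1.07 (SE 0.20) stood at the threshold, with adjusted p = 0.0526 from limma, 0.0524 from edgeR and 6.75e-05 from DESeq2. Slc8a1, a sodium-calcium exchanger, was low in all samples, at 115, 77.4 and 116 against 47.4 and 52.9 (log2 fold change -0.997, SE 0.24, adjusted p = 0.0988 from limma and 0.0282 from DESeq2). Slc8a3, the exchanger best known from skeletal muscle and brain, differed the other way, at 1769, 1351 and 1728 against 2120 and 2542 (log2 fold change 0.53, SE 0.14, adjusted p = 0.126 from limma and 0.0148 from DESeq2).

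Pvalb, the buffer parvalbumin of fast fibres, had 917, 2334 and 1002 normalized counts in WT and 532 and 339 in Elmo2 EID/EID. The groups were apart, and WT replicate 2 was far above the other samples (log2 fold change -1.60, SE 0.41, adjusted p = 0.119 from limma). Sln, which encodes the SERCA inhibitor sarcolipin, had 2724 to 3229 over the samples (adjusted p = 0.742). The reticulum chaperones Calr (17125 to 21528 normalized counts, adjusted p = 0.622) and Canx (18187 to 21286, adjusted p = 0.976) bind calcium in many cell types.

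Of the genes of store-operated entry and IP3 release, limma, edgeR and DESeq2 called 0 of 9, and limma listed 0 at an unadjusted p under 0.05. Orai1, the entry channel, had 3745 to 4791 normalized counts (adjusted p = 0.972) and Stim2, a sensor of store calcium, had 6056 to 7978 (adjusted p = 0.980). Of the excitability genes, the 3 tools called 0 of 8. At an unadjusted p under 0.05, limma listed 1, Kcnj2, beside 15.2% of all tested genes.

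**Figure D4:**
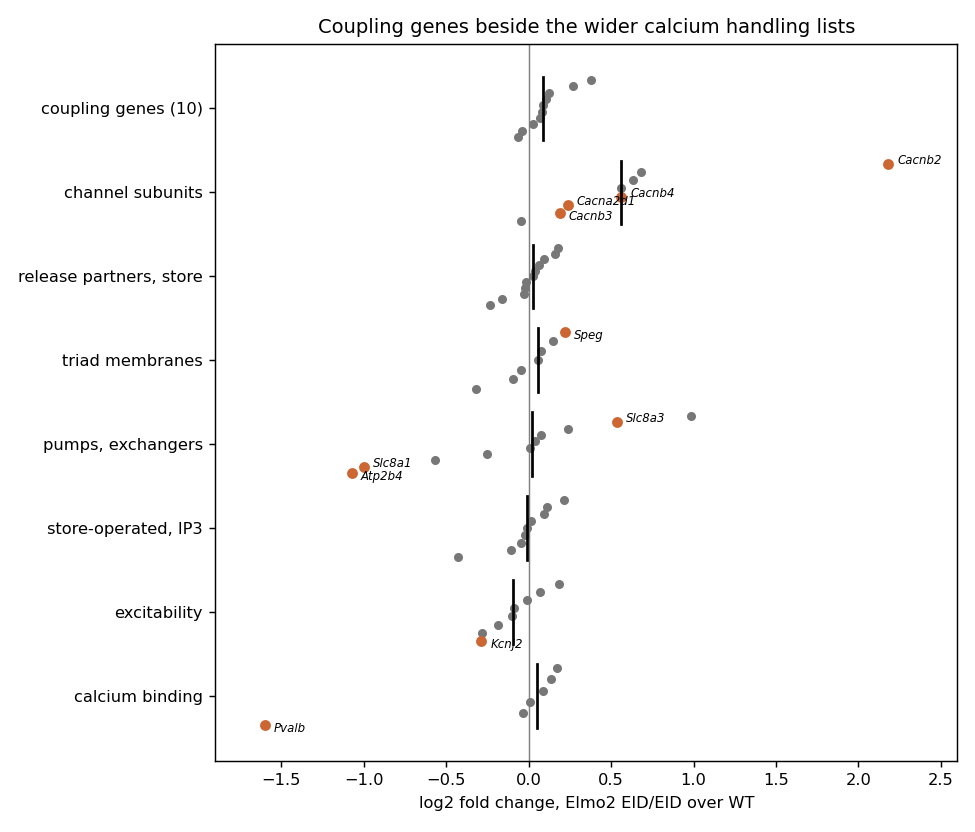
Log2 fold changes, Elmo2 EID/EID over WT, of the 10 coupling genes and of the tested genes of 7 lists of other coupling and calcium genes. Each dot is a gene, the black bar is the median of the list, and the orange dots with names have an unadjusted limma p under 0.05. This holds for 10 of the 59 other genes and 0 of the 10 coupling genes, beside 15.2% of all tested genes. Cacnb2, 1 of the named genes, reached the filter of 5 normalized counts only in the Elmo2 EID/EID samples.

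Of 14 contractile genes of mature fast fibres, limma called 2, beside 2.23% of all tested genes. They were Myh2, higher, and Myh4, lower, both myosin heavy chains. Myh2 had 5146, 5477 and 8085 normalized counts in WT and 13850 and 25641 in Elmo2 EID/EID (log2 fold change 1.63, SE 0.29, adjusted p = 0.0431). Myh4 had 17657, 18200 and 14859 against 10916 and 11617 (log2 fold change -0.58, SE 0.10, adjusted p = 0.0386). Neither passed the test when WT replicate 1 or 2 or either Elmo2 EID/EID sample was left out, without the filter on low values or in limma without its trend, and a filter on a mean of 10 normalized counts left only Myh4. Acta1 (458389 to 518055 normalized counts, adjusted p = 0.994) and Mylpf (188669 to 232612, adjusted p = 0.706), a skeletal actin and a fast myosin light chain, were the highest per length. Of 10 contractile genes of immature or slow muscle, limma, edgeR and DESeq2 called 0, and limma listed 0 at an unadjusted p under 0.05. There, Actc1, the actin of heart and immature muscle, had 202529 to 228129 normalized counts (adjusted p = 0.964), and Myh3, the embryonic myosin, had 395823 to 602709 (adjusted p = 0.622).

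Of 8 myogenic factors, limma and edgeR called 1, Pax7, lower, and DESeq2 called 2, Pax7 and Mef2a, both lower. Over all tested genes limma called 2.23%, edgeR 2.25% and DESeq2 5.34%. Pax7, which marks satellite cells, had 922, 942 and 837 normalized counts in WT and 414 and 298 in Elmo2 EID/EID (log2 fold change -1.35, SE 0.15, adjusted p = 0.00764 from limma). It did not pass without Elmo2 EID/EID replicate 2 (adjusted p = 0.0544) or in limma without its trend (adjusted p = 0.0760). At an unadjusted p under 0.05, limma listed 5 of the 8, with Mef2a, Myod1 and Pax7 lower and Myf5 and Myf6 higher, beside 15.2% of all tested genes. The groups were apart for 6 of the 8, 3 upwards and 3 downwards, beside 32.6% of all tested genes. The part of these factors in the values of the coupling genes was not tested.

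Markers of other cells were summed as normalized counts per list. The 10 endothelial markers summed to 673 to 1981 in WT and 3575 to 5480 in Elmo2 EID/EID. Limma and edgeR called 0 of them, and DESeq2 called 2, Erg and Tie1, higher, beside 5.34% of all tested genes. At an unadjusted p under 0.05, limma and edgeR each listed 7, all higher, beside 15.2% and 15.5% of all tested genes. The groups were apart upwards for 9 and downwards for 1, beside 16.7% and 15.9%. Fibroblast markers summed to 12207 to 27899 against 13641 to 19357 (0 of 7 called by limma), smooth muscle and pericyte markers to 265904 to 284223 against 252030 to 255339 (2 of 8 lower, Rgs5 and Notch3), and Schwann cell markers to 16180 to 17118 against 15525 to 15807 (0 of 8). Macrophage markers summed to 81.3 to 98.7 against 79.8 to 226 (0 of 6), with Ptprc at or under 3 reads in every sample, and cycling markers to 3054 to 4366 against 2902 to 3105 (0 of 10). Notch3 did not pass when any WT sample was left out (adjusted p = 0.0625 to 0.112), without the filter on low values (0.119) or without the trend of limma (0.148). Rgs5 did not pass when either Elmo2 EID/EID sample was left out (0.0929 and 0.0966) or without the trend (0.0516). At an unadjusted p under 0.05, limma listed 3 fibroblast markers (2 higher, 1 lower), 4 smooth muscle and pericyte markers (Cspg4 and Myh11 higher, Rgs5 and Notch3 lower), 2 Schwann markers and 1 macrophage marker (all higher) and 4 cycling markers (all lower). These came from 7, 8, 8, 6 and 10 tested markers, and limma listed 15.2% and called 2.23% of all tested genes. The filter asks for 5 normalized counts in 1 sample, so a low marker could enter the test through the group where it is high. The log2 fold changes of the 10 cycling markers were all negative, with a median of -0.37, and the groups were apart downwards for 5, beside 15.9% of all tested genes. On the fibroblast, Schwann, macrophage and cycling lists edgeR called 0 as well, and DESeq2 called 1 fibroblast marker, Col3a1, lower. Des and Erbb3, which muscle cells express too, make up most of the smooth muscle and Schwann sums. Against the direction of their sum, 7 of the 8 Schwann markers had a positive log2 fold change, and the median was 1.01. The part of other cells in the values of the coupling genes was not tested.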

How the data were processed

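Poly-A RNA of 5 cultures was sequenced in strand-marked libraries of 50-base read pairs. Per the labels and the study's methods, alignment by the authors was to GRCm38 with STAR 2.5.1b, and uniquely mapped reads were counted on the reverse strand with featureCounts 1.4.6. The deposited value is a signal per gene, that is the count over a DESeq2 1.34.0 size factor. Every positive value (100%) was a whole number of reads within 0.01 after division by the value of 1 read. Depth was 35021856 to 49381544 recovered reads, and the 3-read floor covers counting error only. GENCODE M21 matched 54165 of 54232 identifiers. Genes reaching 5 normalized counts in 1 sample or more were tested on log2(normalized count + 1) with limma 3.58.1 (lmFit, eBayes with trend, two-sided, Benjamini-Hochberg over all tested genes, threshold 0.05) without a replicate block. edgeR 4.0.16, DESeq2 1.42.0, other filters, pseudocounts and scalings, a replicate block and leaving out each sample were alternatives, and a block with crossed numbers was added after the data were seen. Code was tested on simulated data.

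The 10 genes and all lists were chosen with earlier results of these data known. Named genes are the 10 members in every sample, the genes past the threshold and the 2 highest per length of each coupling or contractile list (no other list), the other genes of their families, and markers at 0. The 2 highest of the excitability list are not reported here. Trdn, Pax7, other genes called outside those lists, Atp2b4, Slc8a1, Slc8a3, Pvalb and the low genes of the closing section were named after their values were seen. Sequences came from GENCODE M21 transcripts and RefSeq promoters.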

Additional observations from a re-analysis of the deposited data

How the results depend on the processing

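The count of coupling genes called stayed at 0 under every alternative run. Over all genes, 404 were called in the analysis reported here, 155 without a filter on low values, 969 with DESeq2 (413 higher, 556 lower), 144 with limma without the trend, and 54 to 349 when a sample was left out. A replicate block left 224 genes, and the numbers share no known origin: between the genotypes, the differences of replicates 1 and 2 had a correlation of -0.201 across 15107 genes (a description, since genes are not replicates). With the numbers of the Elmo2 EID/EID samples crossed, 1041 genes and 4 of the other coupling genes passed. Of those other coupling genes, 0 were called with the block, 1 with a pseudocount of 5, 1 with quantile normalization, 1 with equal totals (Atp2b4 each time) and 4 with DESeq2. The sign changed for Cacna1s (-0.0089 with the block, whichever numbers were used, and -0.038 to 0.217 when a sample was left out), Stac3 (-0.129 to 0.054 when a sample was left out), Atp2a1 (-0.108 to 0.0019) and Casq2 (-0.0018 with quantile normalization, -0.0015 with the block, whichever numbers were used, and -0.015 to 0.101 when a sample was left out), all log2 fold changes. The Atp2a1 share of the SERCA pumps differed by 0.493 to 2.06 percentage points when a sample was left out. The cause was not tested. With 2 Elmo2 EID/EID samples, an arm of 1 remained when either was left out and was assumed to vary like the other group. The lowest depth of a coupling gene was 830 reads in a sample.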

Other observations

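Coupling genes best known from other tissues were low in these myotubes and are given here by value, chosen after their values were seen. Cacnb2, the beta subunit of heart, had 2.65, 0 and 3.73 normalized counts in WT and 6.26 and 17.9 in Elmo2 EID/EID, where the WT values are at or under 3 reads. Cacnb4, a beta subunit best known from brain, had 44.2, 43.7 and 42.3 against 57.2 and 72.6, with the groups apart (log2 fold change 0.56, SE 0.22, adjusted p = 0.286 from limma). Cacna1c, the L-type pore of heart and smooth muscle, had 138, 62.8 and 82.0 against 106 and 195, and the groups overlapped (adjusted p = 0.467). Pln, which encodes the SERCA inhibitor phospholamban, had 15.9, 25.8 and 36.0 against 65.3 and 37.7 (log2 fold change 0.98, SE 0.41, adjusted p = 0.329), with WT replicate 3 close to the lower Elmo2 EID/EID sample.

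Speg, a kinase of the triad, and Kcnj2, an inward rectifier potassium channel that sets the resting potential, were at higher levels and both had groups apart. Speg had 10340, 11147 and 11282 normalized counts in WT and 12621 and 12823 in Elmo2 EID/EID (log2 fold change 0.22, SE 0.06, adjusted p = 0.170 from limma). Kcnj2 had 982, 1004 and 1021 against 870 and 775 (log2 fold change -0.29, SE 0.08, adjusted p = 0.162 from limma).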
